A study of Mus musculus with 12 samples.

Results

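Interleukin-10 (IL-10), the related cytokines whose genes lie beside it, and the 2 chains of its receptor were followed in the newly made RNA of mouse macrophages, with and without lipopolysaccharide (LPS). The 6 genes are the ligands Il10, Il19, Il20 and Il24 and the receptor chains Il10ra and Il10rb. They were taken by symbol from the probe annotation, using probe sets that name 1 gene only, and all 6 were found among the 19937 genes tested. Each is measured by 1 probe set, so no choice between probe sets was needed. Il10 stayed below the background level in the line MPI-2 and rose in bone marrow-derived macrophages given LPS, Il10ra rose with LPS in MPI-2, and Il20 and Il24 stayed below the background level in every group.

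The 12 arrays formed 4 groups of 3. MPI-2 with LPS and MPI-2 mock were a macrophage line derived from C57BL/6 fetal liver and grown in RPMI with the growth factor GM-CSF. BMM with LPS and BMM mock were macrophages differentiated from C57BL/6 bone marrow with M-CSF and grown in DMEM, and both media held 10% fetal calf serum. The LPS groups received R-LPS, a rough form of lipopolysaccharide from the outer membrane of bacteria, which Toll-like receptor 4 recognises, at a dose that the labels write as 0.1 mg/ml. All cells were labelled for 60 min with 4-thiouridine, a uridine analogue that is built into new RNA. In the LPS groups labelling ran over minutes 30 to 90 of the LPS exposure. The labelled RNA was purified, amplified and hybridised to whole-transcript arrays. The samples are named as biological replicates of the 1 line MPI-2 and of BMM, whereas the series' design text speaks of independently established MPI lines, and the labels do not say which cultures or animals gave each sample. Origin, medium, growth factor and any difference in handling between MPI-2 and BMM run together, so their parts in a difference between the cell types cannot be told apart.

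Values are the deposited log2 expression values of the arrays. A change is a difference of group means with its standard error (SE), from 1 limma fit to all 12 arrays, and it was called where the Benjamini-Hochberg adjusted p over 19937 genes was under 0.05. A log2 value of 3.36 served as the background level. It is the level that 95% of 1027 olfactory receptor genes did not exceed in their mean over the arrays, and it was used on the assumption, which was not tested, that macrophages do not transcribe those genes. Arrays of a group correlated with each other at 0.994 to 0.996 in MPI-2 with LPS and 0.994 to 0.995 in MPI-2 mock, against 0.975 to 0.988 in BMM with LPS and 0.978 to 0.989 in BMM mock. The interquartile range of the gene values on an array was 3.1 to 3.22 in MPI-2 with LPS and 3.27 to 3.47 in MPI-2 mock, against 2.34 to 2.74 in BMM with LPS and 2.8 to 2.93 in BMM mock. The spread of an array's values thus moves with cell type and with LPS, and its part in the differences was not tested beyond the other scalings given. The number of arrays limits the precision. All 10 macrophage markers on the list, among them Csf1r, Adgre1 and Spi1, lay above the background in all 4 groups. Their summed log2 values ran from 82.1 to 82.3 in MPI-2 with LPS, 80.4 to 81.6 in MPI-2 mock, 83.9 to 86.7 in BMM with LPS and 89.8 to 91.2 in BMM mock.

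IL-10 is the main cytokine by which macrophages restrain their own inflammatory output. It binds a receptor of a ligand-specific chain, encoded by Il10ra, and a chain encoded by Il10rb that it shares with IL-22, IL-26 in humans and the lambda interferons, and the receptor signals through the kinases JAK1 and TYK2 to the transcription factor STAT3. IL-19, IL-20 and IL-24 belong to the same cytokine family, and their genes stand next to Il10 on chromosome 1, in the order Il24, Il20, Il19, Il10. They do not use the IL-10 receptor. They signal through receptors built on the chain encoded by Il20rb, mainly on epithelial cells. Macrophages are a known source of IL-10 and IL-19 after Toll-like receptor stimulation.

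The promoter table used held windows for 2 of the 6 genes, Il19 and Il20, and both are shown. Both run from 250 bases before to 50 bases after the start that the table gives, 5′ to 3′ on the minus strand of chromosome 1, and come from RefSeq on the build GRCm38.p6. For Il20 that is the outer end of the gene, whereas for Il19 it lies inside the gene's RefSeq span, so the Il19 window is not upstream of the whole gene. Capitals mark every match to one of the motifs searched. The windows are chr1:130940066-130940365 for Il19 and chr1:130911247-130911546 for Il20.
Il19: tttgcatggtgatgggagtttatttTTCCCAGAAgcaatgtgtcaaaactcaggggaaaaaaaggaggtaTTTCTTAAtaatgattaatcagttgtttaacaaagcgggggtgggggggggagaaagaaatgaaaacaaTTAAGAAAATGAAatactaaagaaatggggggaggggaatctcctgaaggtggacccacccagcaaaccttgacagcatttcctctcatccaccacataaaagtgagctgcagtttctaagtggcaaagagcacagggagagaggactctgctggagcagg
Il20: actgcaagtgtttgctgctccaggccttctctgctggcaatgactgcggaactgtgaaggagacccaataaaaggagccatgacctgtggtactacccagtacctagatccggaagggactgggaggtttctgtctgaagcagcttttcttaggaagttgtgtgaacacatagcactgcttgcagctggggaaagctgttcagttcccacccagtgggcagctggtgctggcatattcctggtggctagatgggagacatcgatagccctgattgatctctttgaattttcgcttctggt
Searched on both strands were NF-kB (GGGNNTTCC and GGGNNTTTC), CRE (TGACGTCA), its shorter form TGACG, AP-1 (TGANTCA), STAT (TTCNNNGAA), C/EBP (TTNNGNAA), E-box (CACGTG) and ISRE (GAAANNGAA), where N is any base. The Il19 window held the STAT letters at positions -225 to -217 from the start, the C/EBP letters at -180 to -173 and at -111 to -104, and the ISRE letters at -107 to -99, which overlap the later C/EBP match. The Il20 window held none of the motifs. Among 32851 promoter windows of this length, 8.3% held the STAT letters, 40.7% the C/EBP letters and 8.56% the ISRE letters. The shares were 5.82% and 4.36% for the NF-kB forms, 1.79% for CRE, 20.8% for its shorter form, 7.81% for AP-1 and 7.15% for the E-box. A match describes the letters of the window and is no evidence of binding. Whether these letters bear on the LPS changes of Il19 and Il20 was not tested.

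Il10, the ligand itself, separated the 4 groups more widely than any other of the 6 genes. The log2 values were 2.42, 2.37 and 2.68 in MPI-2 with LPS, against 2.41, 2.47 and 2.19 in MPI-2 mock. All 6 of these values lie below the background level and the groups overlap. In BMM with LPS the values were 8.80, 9.46 and 9.68, against 6.02, 4.93 and 5.68 in BMM mock. Every BMM value lies above the background level, and every BMM LPS array is higher than every BMM mock array.

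With LPS, Il10 changed in MPI-2 by 0.13 ± 0.25 on the log2 scale (SE), with a 95% confidence interval of -0.39 to 0.66 and a limma adjusted p of 0.856. Since both MPI-2 groups lie below the background level, this value says little about a low level of transcription. LPS raised Il10 in BMM by 3.77 ± 0.25, a 13.6-fold higher level, with an adjusted p of 1.5e-08 by limma and an interval of 3.24 to 4.29. That was the 46th highest of 19937 changes, in a comparison that called 25.7% of genes, 10.3% as higher and 15.4% as lower. The group means were 9.31 ± 0.46 in BMM with LPS and 5.54 ± 0.56 in BMM mock (SD, n = 3 each). The difference of the responses, MPI-2 minus BMM, was -3.64 ± 0.35 (limma adjusted p = 3.49e-06).

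Between the cell types, Il10 was lower in MPI-2 both with and without LPS. With LPS it averaged 2.49 ± 0.17 in MPI-2 and 9.31 ± 0.46 in BMM (SD, n = 3 each), a measured log2 difference of -6.82 ± 0.25 (limma adjusted p = 5.18e-12). As the MPI-2 arrays lie below the background level, Il10 was at least 61.7-fold lower there, the bound set by that level, and 113-fold lower by the measured means. In mock cells it averaged 2.36 ± 0.15 in MPI-2 and 5.54 ± 0.56 in BMM, a measured difference of -3.19 ± 0.25 (limma adjusted p = 4.29e-08), which is at least 4.53-fold lower. The order of the levels was BMM with LPS, BMM mock and then both MPI-2 groups, whose means do not differ beyond their spread. In these bulk samples fewer producing cells and less new RNA per cell cannot be told apart.

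**Figure D1:**
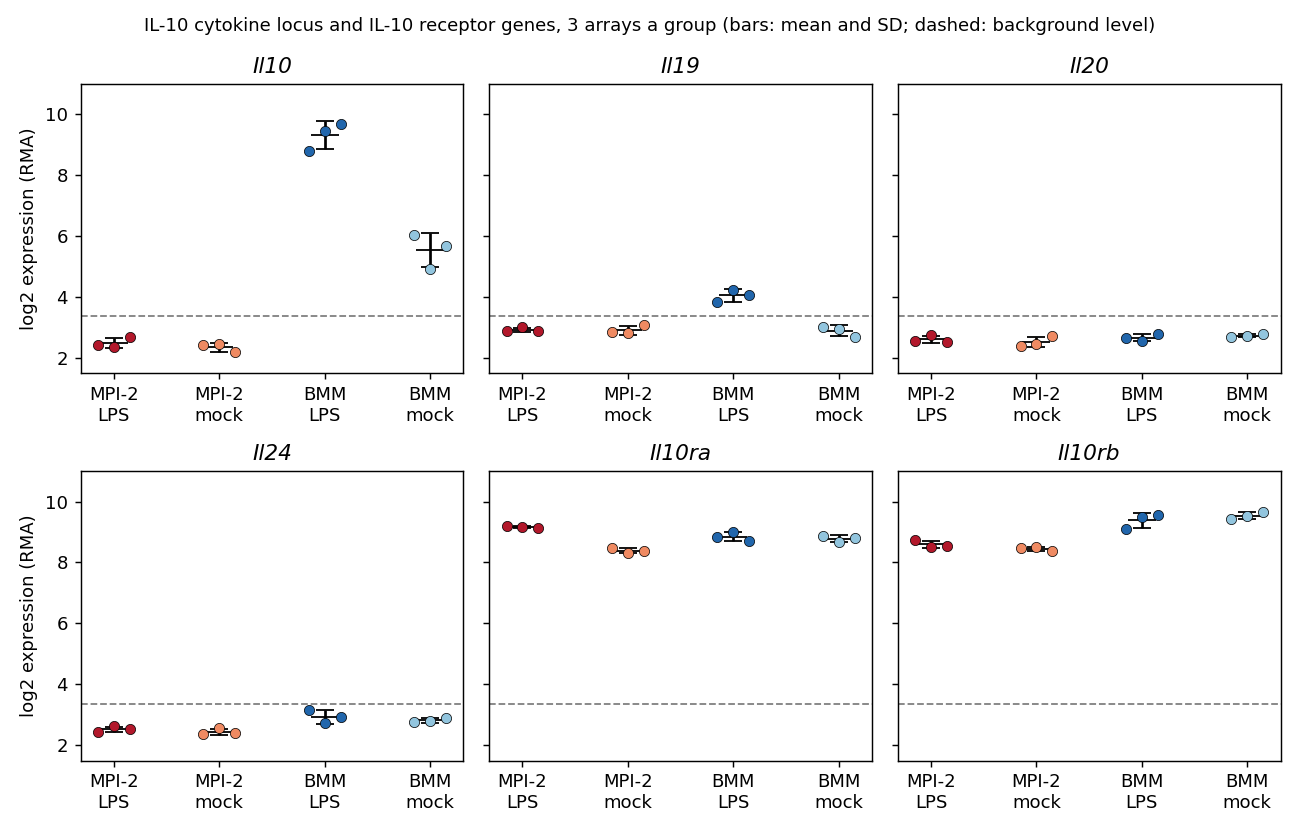
Deposited log2 value of each of the 6 genes on each of the 12 arrays, by group, with the mean and SD of each group as bars and the background level of 3.36 as a dashed line. Il10 lies below the background in both MPI-2 groups, at 8.80 to 9.68 in BMM with LPS and at 4.93 to 6.02 in BMM mock, and Il20 and Il24 lie below it throughout.

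Il19, whose product IL-19 is made by activated macrophages, was also called for LPS in BMM. Its log2 values were 2.90, 3.00 and 2.88 in MPI-2 with LPS, against 2.85, 2.81 and 3.09 in MPI-2 mock. In BMM with LPS they were 3.84, 4.24 and 4.08, against 3.02, 2.96 and 2.69 in BMM mock. Only the BMM LPS arrays lie above the background level, and they do not overlap with any other group.

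With LPS, Il19 changed in MPI-2 by 0.01 ± 0.14 on the log2 scale (limma adjusted p = 0.984). It rose in BMM by 1.16 ± 0.14 (limma adjusted p = 9.54e-06), the 650th highest of 19937 changes. With BMM mock below the background level, this is at least a 1.61-fold higher level, and 2.23-fold by the measured means. The responses differed by -1.15 ± 0.19, MPI-2 minus BMM (limma adjusted p = 0.000755). After LPS, Il19 was lower in MPI-2 than in BMM by -1.13 ± 0.14 (limma adjusted p = 5.83e-06), again at least 1.61-fold, and in mock cells the difference was 0.02 ± 0.14 (limma adjusted p = 0.908). BMM with LPS stood highest, and the other 3 group means, from 2.89 to 2.93, lay within the spread of their arrays.

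Il20 and Il24, the remaining ligands of the locus, were not detected above the background level on any of the 12 arrays. Il20 had log2 values of 2.54, 2.74 and 2.54 in MPI-2 with LPS, against 2.41, 2.47 and 2.72 in MPI-2 mock. In BMM with LPS it had 2.64, 2.57 and 2.78, against 2.68, 2.72 and 2.78 in BMM mock, and all 4 groups overlap. None of the 5 comparisons called Il20, with log2 differences from -0.19 to 0.14 and limma adjusted p-values from 0.236 to 0.829.

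Il24 had log2 values of 2.45, 2.62 and 2.52 in MPI-2 with LPS, against 2.38, 2.56 and 2.40 in MPI-2 mock. The BMM values were 3.16, 2.72 and 2.92 with LPS, against 2.78, 2.78 and 2.90 in mock, so that each BMM array is above each MPI-2 array. LPS changed Il24 by 0.09 ± 0.13 in MPI-2 and by 0.11 ± 0.13 in BMM, neither of which was called (limma adjusted p = 0.808 and 0.588). MPI-2 was below BMM by -0.40 ± 0.13 after LPS and by -0.38 ± 0.13 in mock (limma adjusted p = 0.02 and 0.0307), and no fold is given because both sides lie below the background level. The olfactory receptor genes moved the same way. Their median difference, MPI-2 minus BMM, was -0.208 after LPS and -0.125 in mock, with 91.5% and 84.6% of them lower. Both Il24 calls were lost when the arrays were rescaled by cyclic loess, with differences of -0.22 after LPS and -0.25 in mock.

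**Figure D2:**
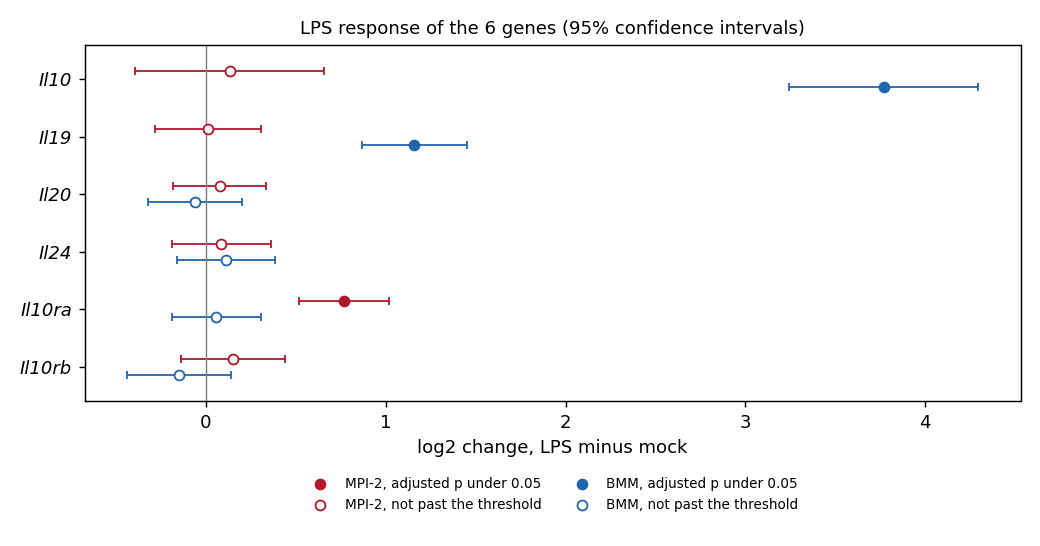
Log2 change with LPS, LPS minus mock, of the 6 genes in MPI-2 (upper point of each pair) and BMM (lower point), with 95% confidence intervals from limma and filled points where the adjusted p was under 0.05. Il10ra changed in MPI-2, by 0.77, and Il10 and Il19 changed in BMM, by 3.77 and 1.16.

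Of the receptor chains, Il10ra, the IL-10-specific chain, rose with LPS in MPI-2. Its log2 values were 9.19, 9.15 and 9.12 in MPI-2 with LPS, against 8.47, 8.33 and 8.37 in MPI-2 mock, with no overlap. In BMM the values were 8.84, 8.98 and 8.70 with LPS, against 8.88, 8.68 and 8.79 in mock, which overlap. All 12 values lie far above the background level.

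In MPI-2 the Il10ra change was 0.77 ± 0.12 (limma adjusted p = 0.00024), a 1.70-fold higher level and the 603rd highest of 19937 changes. It was the 1 of the 6 genes called in that comparison, which called 14.8% of all genes, 5.17% as higher and 9.58% as lower. In BMM the change was 0.06 ± 0.12, with a 95% confidence interval of -0.19 to 0.31 (limma adjusted p = 0.772). The responses differed by 0.71 ± 0.16, MPI-2 minus BMM (limma adjusted p = 0.00815). In mock cells Il10ra was lower in MPI-2, at 8.39 ± 0.073 in MPI-2 and 8.78 ± 0.10 in BMM (SD, n = 3 each), a difference of -0.39 ± 0.12 (limma adjusted p = 0.0136). That call was lost without MPI-2 mock replicate 2 (-0.36, limma adjusted p = 0.0558).

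After LPS the Il10ra means were 9.16 ± 0.035 in MPI-2 and 8.84 ± 0.14 in BMM (SD, n = 3 each). The difference of 0.32 ± 0.12 had a limma adjusted p of 0.0389, and the arrays of the groups do not overlap. It did not hold under other settings: it was -0.09 after cyclic loess scaling, and its adjusted p was 0.05 or above in 13 other alternatives. The direction of Il10ra between the cell types after LPS therefore depends on how the arrays are scaled.

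Il10rb, the shared chain, differed between the cell types and was not called for LPS. It had log2 values of 8.74, 8.52 and 8.54 in MPI-2 with LPS, against 8.47, 8.51 and 8.37 in MPI-2 mock. In BMM with LPS it had 9.11, 9.48 and 9.56, against 9.42, 9.51 and 9.66 in BMM mock. Every MPI-2 array is lower than every BMM array, and the BMM groups overlap. The MPI-2 groups do not overlap, and their difference of 0.15 had an SE of 0.14.

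LPS changed Il10rb by 0.15 ± 0.14 in MPI-2 and by -0.15 ± 0.14 in BMM, with intervals of -0.14 to 0.44 and -0.44 to 0.14 (limma adjusted p = 0.628 and 0.472). The difference of these responses was 0.30 ± 0.19 (limma adjusted p = 0.412). In mock cells Il10rb averaged 8.45 ± 0.069 in MPI-2 and 9.53 ± 0.12 in BMM (SD, n = 3 each), 2.12-fold lower in MPI-2 (log2 -1.08 ± 0.14, limma adjusted p = 8.89e-06). After LPS it averaged 8.60 ± 0.12 in MPI-2 and 9.38 ± 0.24 in BMM, 1.72-fold lower in MPI-2 (log2 -0.78 ± 0.14, limma adjusted p = 0.000201). Cyclic loess scaling gave -1.19 after LPS and -1.44 in mock. BMM mock and BMM with LPS stood highest and MPI-2 with LPS and MPI-2 mock lowest, and neither neighbouring pair differed beyond the limma threshold.

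Counted over the 6 genes, LPS called 1 in MPI-2 and 2 in BMM, all as higher. Over all genes it called 14.8% in MPI-2, 5.17% as higher, and 25.7% in BMM, 10.3% as higher. These shares depend on a spread per gene taken from both cell types: LPS in MPI-2 called 2941 genes, against 5026 with only the MPI-2 groups fitted. The difference of responses called 1 as higher and 2 as lower, in a comparison that called 13.4% of all genes, 7.08% as higher and 6.27% as lower. MPI-2 against BMM called 5 of 6 after LPS, 1 as higher and 4 as lower, where 44.1% of all genes were called, 22.5% as higher and 21.6% as lower. In mock it called 4 of 6, all as lower, where 38.6% of all genes were called, 20.6% as higher and 18% as lower. Between the cell types a call is therefore common among all genes. The median change over all genes was 0.0204 for LPS in MPI-2 and 0.0431 for LPS in BMM, and -0.0225 for the difference of responses. Between the cell types it was -0.144 after LPS and -0.104 in mock, against -0.034 and -0.0194 after cyclic loess scaling. The 2 LPS comparisons share no arrays, whereas each comparison between cell types shares its arrays with them.

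The neighbours of the ligand genes on chromosome 1 did not share one pattern. In RefSeq order the 4 nearest tested genes beside Il24 are Fcmr, Pigr, Fcamr and AA986860, and the 4 beside Il10 are Mapkapk2, Dyrk3, Eif2d and Rassf5. Mapkapk2, the gene next to Il10, encodes the kinase MK2, which acts below p38 and controls the stability and translation of cytokine mRNAs. It rose with LPS in both cell types, by 1.18 ± 0.15 in MPI-2 and by 1.86 ± 0.15 in BMM (limma adjusted p = 5.34e-05 and 1.77e-07). Its log2 level was 9.24 ± 0.074 in MPI-2 with LPS and 8.06 ± 0.14 in MPI-2 mock (SD, n = 3 each). In BMM it was 10.1 ± 0.29 with LPS and 8.25 ± 0.19 in mock. The difference of the Mapkapk2 responses, -0.67 ± 0.21, did not pass the threshold (limma adjusted p = 0.0509), though it did in 7 of 19 alternatives. After LPS Mapkapk2 was lower in MPI-2 than in BMM, by -0.86 ± 0.15 (limma adjusted p = 0.000236). The mock difference of -0.19 ± 0.15 was not called (limma adjusted p = 0.344). In MPI-2 the gene beside Il10 lay well above the background level and rose with LPS, though to a lower level than in BMM. Il10 itself lay below the background level there.

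Rassf5, which encodes a Ras and Rap effector involved in leukocyte adhesion, fell with LPS in both cell types, with log2 changes of -1.0 ± 0.18 in MPI-2 and -1.91 ± 0.18 in BMM (limma adjusted p = 0.0011 and 8.93e-07). Dyrk3 and Eif2d, coding for a kinase and a translation factor, were not called for LPS. Both were lower in MPI-2 than in BMM in mock, by -0.83 ± 0.17 and -0.80 ± 0.21 (limma adjusted p = 0.000824 and 0.00627). On the other side, Fcamr and Fcmr, which encode Fc receptors for IgM, and Pigr, the transporter of polymeric immunoglobulins, had group means at or near the background level or below it, from 2.57 to 3.53. Fcamr was called for LPS in BMM (0.43 ± 0.13, limma adjusted p = 0.021) with every group mean below the background level, and the call was lost without BMM LPS replicate 3 (0.32, limma adjusted p = 0.0838) and without BMM mock replicate 2 (0.41, limma adjusted p = 0.058).

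**Figure D3:**
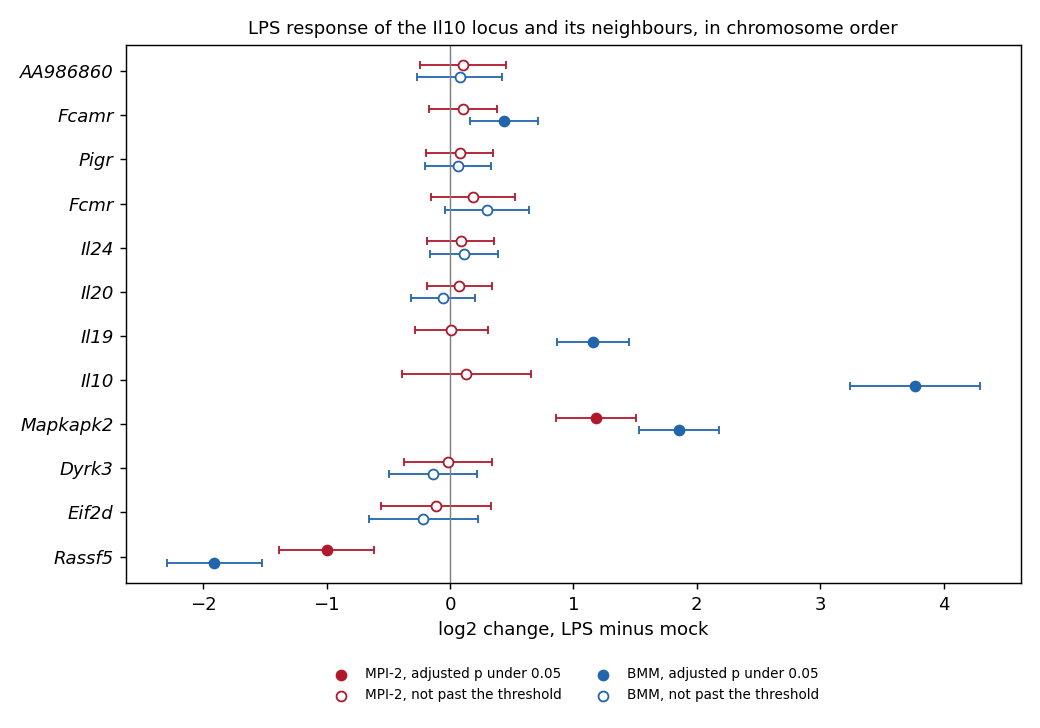
Log2 change with LPS, LPS minus mock, of the 4 ligand genes and their 4 nearest tested neighbours on each side, in chromosomal order and not to scale, with 95% confidence intervals for MPI-2 and BMM and filled points for adjusted p under 0.05. Mapkapk2 changed in both cell types (1.18 and 1.86), and Il10, directly beside it, changed in BMM (3.77).

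Of the 4 nearest tested neighbours of Il10rb on chromosome 16, 3 are receptor genes of the same class II cytokine receptor family, Ifnar2 and Ifnar1 for type I interferon and Ifngr2 for interferon gamma. The other, Olig1, which encodes a transcription factor of oligodendrocytes, had group means of 3.19 to 3.62, near the background level. It was called lower in MPI-2 in mock (-0.43 ± 0.15, limma adjusted p = 0.0357), and the call was lost under cyclic loess scaling (-0.22, limma adjusted p = 0.302), under quantile normalization (-0.26, limma adjusted p = 0.231) and without single mock arrays: MPI-2 replicate 2 or 3, or BMM replicate 1 or 3 (adjusted p = 0.0778 to 0.137). Ifnar1, the gene next to Il10rb, had log2 levels of 7.85 ± 0.0084 in MPI-2 with LPS and 7.52 ± 0.055 in MPI-2 mock, and of 9.20 ± 0.11 in BMM with LPS and 9.09 ± 0.071 in BMM mock (SD, n = 3 each). It was lower in MPI-2 by -1.35 ± 0.11 after LPS and by -1.56 ± 0.11 in mock (limma adjusted p = 5.27e-08 and 1.31e-08). Ifnar2 was lower by -0.95 ± 0.11 and -1.22 ± 0.11 (limma adjusted p = 2.9e-06 and 2.19e-07). Il10rb, with -0.78 after LPS and -1.08 in mock, thus lay in the same direction as both genes that flank it.

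Ifngr2 did not pass the threshold between the cell types after LPS (0.06 ± 0.15, limma adjusted p = 0.768) and was lower in MPI-2 in mock (-0.74 ± 0.15, limma adjusted p = 0.00124). With LPS it had -0.26 ± 0.15 in MPI-2, which was not called, and fell in BMM, with a change of -1.06 ± 0.15 (limma adjusted p = 7.78e-05). Over the list of 5 interferon receptor chains of the family, 0 were higher and 3 lower in MPI-2 after LPS, and 0 were higher and 5 lower in mock, where 21.6% and 18% of all genes were called lower. One of the 5, Ifnlr1, has all group means below the background level, and its call in mock was lost under cyclic loess (adjusted p = 0.0801) and quantile normalization (adjusted p = 0.0885). Their median difference was -0.833 after LPS and -1.03 in mock, beside -0.144 and -0.104 over all genes. The neighbours of Il10ra on chromosome 9 (Scn4b, Tmprss4, Tmprss13 and Fxyd6) had group means from 2.46 to 5.12. Among them LPS called 1, Tmprss13 in BMM (0.54 ± 0.13, limma adjusted p = 0.00549), at 3.45 ± 0.21 in BMM with LPS and 2.91 ± 0.038 in BMM mock. With BMM mock below the background level and BMM with LPS close to it, this is at least a 1.06-fold higher level.

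Of the other IL-10 family ligands and receptors, 7 of 9 listed genes were tested and 3 had a group mean above the background level. LPS called 2 as higher and 0 as lower in MPI-2 (median 0.146), and 0 in BMM (median 0.166), where 14.8% and 25.7% of all genes were called. Il20rb, the shared chain of the receptors for IL-19, IL-20 and IL-24, had the largest changes among them. Its log2 level was 7.98 ± 0.065 in MPI-2 with LPS and 6.90 ± 0.20 in MPI-2 mock, and 5.24 ± 0.073 in BMM with LPS and 5.08 ± 0.20 in BMM mock (SD, n = 3 each). It rose with LPS in MPI-2 by 1.08 ± 0.13 (limma adjusted p = 4.07e-05), with 0.17 in BMM (limma adjusted p = 0.418), and the responses differed by 0.91 ± 0.19 (limma adjusted p = 0.00388). MPI-2 was higher than BMM by 2.74 ± 0.13 after LPS and 1.83 ± 0.13 in mock (limma adjusted p = 1.71e-10 and 2.47e-08).

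Il20ra, the chain that pairs with the Il20rb product, had group means of 2.32 to 2.80, all below the background level. Il22ra1, the IL-22 receptor chain that can also pair with it, rose with LPS in MPI-2 by 0.41 ± 0.12 (limma adjusted p = 0.0329), at 3.69 ± 0.13 in MPI-2 with LPS and 3.28 ± 0.048 in MPI-2 mock. That value sits at the background level, and the call was lost in 9 of 20 alternatives. Ifnl2, a lambda interferon gene that shares near-identical sequence with Ifnl3, had means of 5.29 to 5.82 and was called in no comparison.

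Genes known to regulate Il10 transcription or the stability of its mRNA moved in both directions, and 24 of 30 listed were tested. LPS called 9 as higher and 1 as lower in MPI-2 (median 0.0331), and 9 as higher and 6 as lower in BMM (median -0.168). Over all genes, LPS called 5.17% as higher and 9.58% as lower in MPI-2, and 10.3% and 15.4% in BMM. Against BMM, MPI-2 had 9 higher and 10 lower after LPS, and 7 higher and 10 lower in mock, with medians of 0.0302 and -0.165, where 44.1% and 38.6% of all genes were called. Among these 24 genes, the widest differences between the cell types were in genes of transcription factors.

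Maf encodes c-MAF, a factor that activates Il10 transcription in macrophages and T cells. Its log2 level was 3.43 ± 0.21 in MPI-2 with LPS and 3.17 ± 0.028 in MPI-2 mock, near the background level, and 8.20 ± 0.50 in BMM with LPS and 8.67 ± 0.34 in BMM mock (SD, n = 3 each). The measured difference was -4.76 ± 0.22 after LPS and -5.50 ± 0.22 in mock (limma adjusted p = 7.14e-11 and 2.23e-11). As all 3 MPI-2 mock arrays lie below the background level, Maf was at least 39.5-fold lower there in mock. Maf was low in the cells in which Il10 was below the background level, and LPS did not change its order between the cell types. A link between Maf and Il10 was not tested.

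Bhlhe40 and Bhlhe41 encode related basic helix-loop-helix repressors, and BHLHE40 is known to restrain Il10 in T cells and myeloid cells. Bhlhe40 was at 9.79 ± 0.14 in MPI-2 with LPS and 9.80 ± 0.045 in MPI-2 mock, and at 6.49 ± 0.42 in BMM with LPS and 6.68 ± 0.34 in BMM mock (SD, n = 3 each). It was higher in MPI-2 by 3.30 ± 0.20 after LPS and 3.13 ± 0.20 in mock (limma adjusted p = 1.56e-09 and 3.75e-09). Bhlhe41 was higher in MPI-2 by 5.23 ± 0.18 after LPS and 3.12 ± 0.18 in mock (limma adjusted p = 4.24e-12 and 2.01e-09). LPS lowered Bhlhe41 in BMM (log2 -2.56 ± 0.18, limma adjusted p = 4.79e-08), to 3.57 ± 0.10 in BMM with LPS, against 6.12 ± 0.46 in BMM mock, and its responses differed by 2.11 ± 0.26 (limma adjusted p = 4.26e-05).

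Cebpb, which encodes the factor C/EBP beta, and Irf4, an interferon regulatory factor of lymphocytes and macrophages, were also higher in MPI-2. Cebpb differed by 2.88 ± 0.28 after LPS and 2.06 ± 0.28 in mock, and Irf4 by 2.18 ± 0.16 and 3.00 ± 0.16. Atf1, Sp1 and Map3k8 were called higher in MPI-2 as well, beside 10 regulators called lower in each comparison. They differed by 1.06, 0.63 and 0.38 after LPS and by 0.84, 0.66 and 0.70 in mock. Under cyclic loess the calls of Sp1 in both comparisons, of Map3k8 after LPS and of Atf1 in mock were lost. No link between these regulators and Il10 was tested. Irf4 rose with LPS in both cell types, by 1.71 ± 0.16 in MPI-2 and 2.54 ± 0.16 in BMM (limma adjusted p = 1.66e-06 and 8.43e-09). Prdm1, coding for the factor BLIMP1, rose with LPS by 2.29 ± 0.16 in MPI-2 (limma adjusted p = 8.2e-08) and by 1.83 ± 0.16 in BMM. Rel, which encodes the NF-kB subunit c-Rel, rose by 1.30 ± 0.16 in MPI-2 and by 0.50 ± 0.16 in BMM (limma adjusted p = 2.87e-05 and 0.027).

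Fos, a subunit of AP-1, fell with LPS in this window, with log2 changes of -1.03 ± 0.18 in MPI-2 and -2.20 ± 0.18 in BMM (limma adjusted p = 0.00101 and 2.37e-07). In mock it was lower in MPI-2 than in BMM, by -3.33 ± 0.18 (limma adjusted p = 9.25e-10). Nfil3, which encodes a bZIP factor that is also induced by IL-10, had an LPS change of -0.03 ± 0.20 in MPI-2 (limma adjusted p = 0.969) and rose in BMM by 1.23 ± 0.20. Its responses differed by -1.26 ± 0.29 (limma adjusted p = 0.00783). Zfp36, coding for tristetraprolin, which promotes the decay of cytokine mRNAs, was lower in MPI-2 by -2.39 ± 0.16 after LPS and -2.51 ± 0.16 in mock (limma adjusted p = 6.41e-09 and 4.55e-09).

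**Figure D4:**
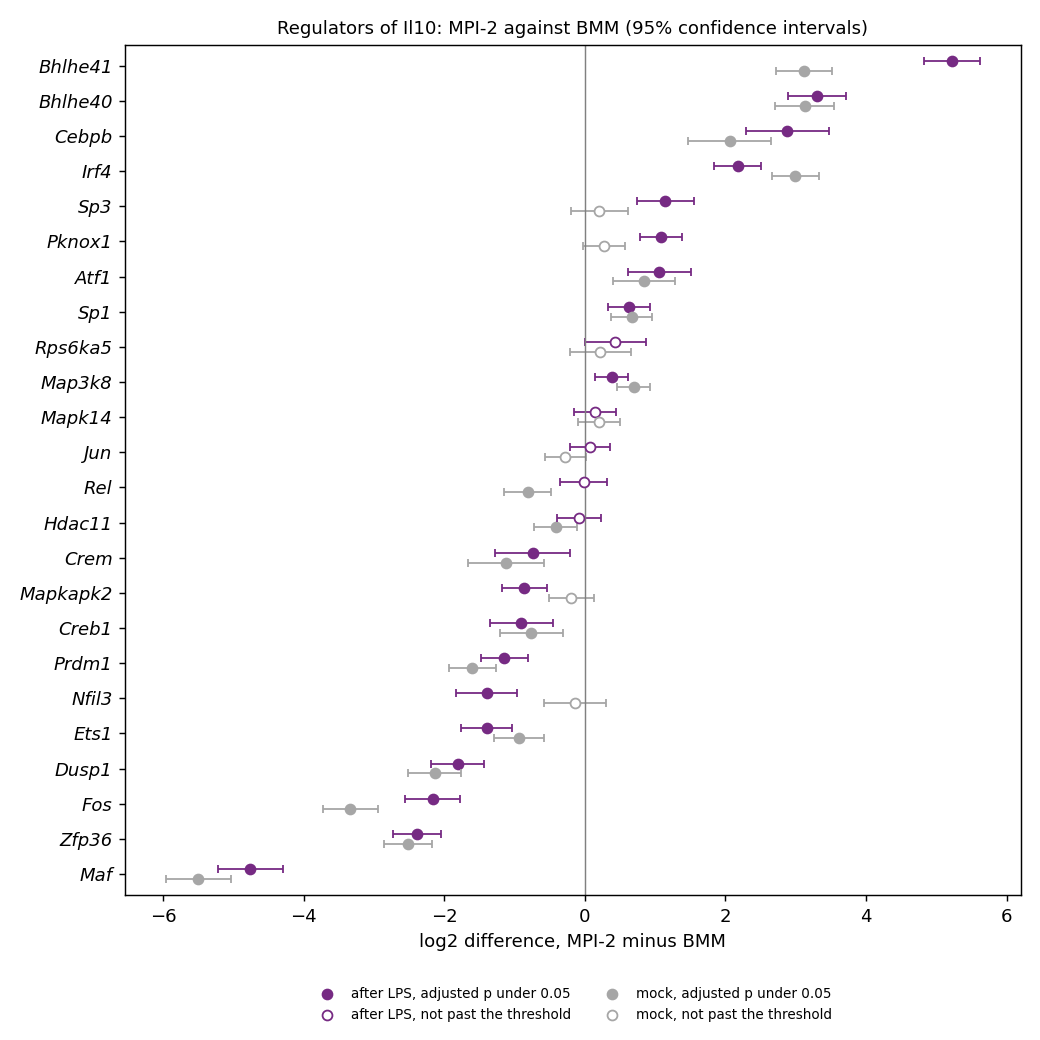
Log2 difference between the cell types, MPI-2 minus BMM, of 24 regulators of Il10 after LPS (upper point, purple) and in mock (lower point, grey), with 95% confidence intervals from limma and filled points where the adjusted p was under 0.05. Bhlhe41 (5.23 after LPS and 3.12 in mock) and Bhlhe40 (3.30 and 3.13) lie at the high end, and Maf (-4.76, and -5.50 with MPI-2 mock below the background level) at the low end.

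Genes of IL-10 receptor signalling and its known targets had 19 of 20 listed members tested. LPS called 6 as higher and 2 as lower in MPI-2 (median 0.0274), and 9 as higher and 1 as lower in BMM (median 0.539), where 14.8% and 25.7% of all genes were called in either direction. The difference of responses, MPI-2 minus BMM, called 1 as higher and 8 as lower (median -0.258), where 13.4% of all genes were called. Several of these genes are known to respond to LPS without IL-10 as well, and the labelling ended 90 min after LPS. Whether IL-10 had a part in their changes here was not tested.

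The kinase genes that act directly below the receptor rose with LPS in both cell types. Jak1 rose by 0.76 ± 0.12 in MPI-2 and 0.62 ± 0.12 in BMM (limma adjusted p = 0.000444 and 0.00123), and Tyk2 by 0.70 ± 0.17 and 0.96 ± 0.17 (limma adjusted p = 0.011 and 0.000576). Stat3, the factor they activate, was called for LPS in neither cell type, with -0.34 ± 0.13 in MPI-2 and 0.33 ± 0.13 in BMM (limma adjusted p = 0.109 and 0.0823), though its responses differed by -0.67 ± 0.19 (limma adjusted p = 0.0246).

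Socs3, the feedback inhibitor that STAT3 induces, rose in both, by 1.42 ± 0.23 in MPI-2 and 2.59 ± 0.23 in BMM (limma adjusted p = 0.000368 and 3.5e-07). Socs1, an inhibitor of interferon and cytokine receptor signalling, had a change of -0.35 ± 0.31 in MPI-2 (limma adjusted p = 0.613) and rose in BMM by 3.34 ± 0.31 (limma adjusted p = 6.18e-07). Its level was 4.54 ± 0.26 in MPI-2 with LPS and 4.89 ± 0.11 in MPI-2 mock, and 8.0 ± 0.83 in BMM with LPS and 4.65 ± 0.42 in BMM mock (SD, n = 3 each). The Socs1 responses differed by -3.69 ± 0.43 (limma adjusted p = 2.44e-05), a difference close in size to that of Il10.

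Il1rn, which encodes the IL-1 receptor antagonist, rose by 1.81 ± 0.13 in MPI-2 and 2.65 ± 0.13 in BMM (limma adjusted p = 1.01e-07 and 4.56e-10). MPI-2 stood higher both after LPS and in mock, by 1.07 ± 0.13 and 1.91 ± 0.13. Arid5a, coding for an RNA-binding protein that stabilises inflammatory mRNAs, rose in BMM by 1.57 ± 0.21 (limma adjusted p = 3.15e-05), and its responses differed by -2.06 ± 0.30 (limma adjusted p = 0.000166). Hmox1, which encodes heme oxygenase 1, went the other way: it fell in BMM, with a change of -1.47 ± 0.19 (limma adjusted p = 1.92e-05), and its responses differed by 1.91 ± 0.26 (limma adjusted p = 0.000113). Sbno2, a transcriptional co-regulator induced by IL-10, was lower in MPI-2 after LPS by -2.05 ± 0.21 (limma adjusted p = 9.46e-07). It was also called lower there in mock, at 7.23 ± 0.30 in MPI-2 and 8.06 ± 0.40 in BMM (SD, n = 3 each). Its LPS change in BMM, 0.54 ± 0.21, was not called (limma adjusted p = 0.0785). In MPI-2 that change was -0.67 ± 0.21 (limma adjusted p = 0.0441), a call lost in 8 of 20 alternatives.

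**Figure D5:**
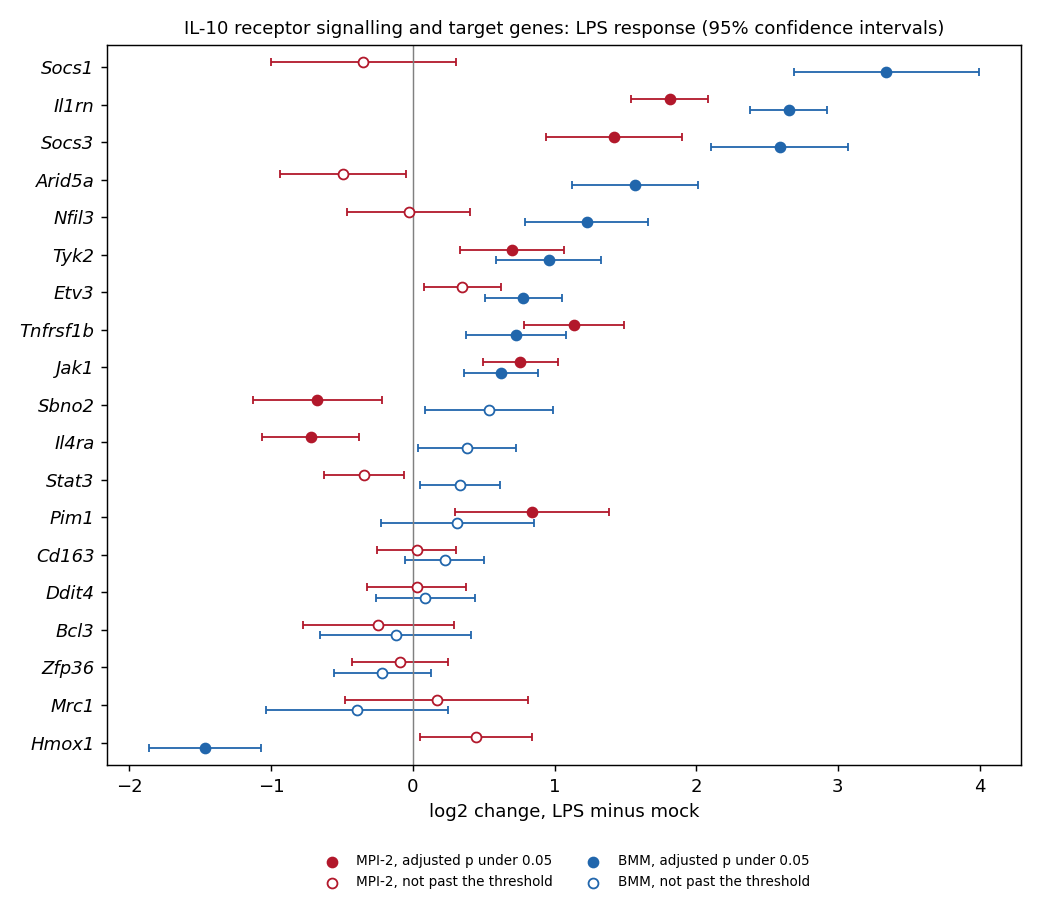
Log2 change with LPS, LPS minus mock, of 19 genes of IL-10 receptor signalling and its targets in MPI-2 (upper point) and BMM (lower point), with 95% confidence intervals and filled points for adjusted p under 0.05. Socs1 had -0.35 in MPI-2 and changed by 3.34 in BMM, and Hmox1 fell in BMM.

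The genes whose values ran most like those of each detected gene were found by Pearson's r over the 12 arrays among 12392 genes above the background level. The 12 arrays share 4 groups, so these values describe group patterns and carry no test. For Il10 they were Atxn7l1, Ifi213 and Tmem171, each with r = 0.994. Ifi213, an interferon-inducible gene, had mean log2 levels of 2.94 in MPI-2 with LPS and 2.83 in MPI-2 mock, and of 10.19 in BMM with LPS and 6.59 in BMM mock. For Il19 they were Vcan (r = 0.979), which encodes the matrix proteoglycan versican, Tnfsf4 (r = 0.979), the OX40 ligand gene, and Nos2 (r = 0.978), the inducible nitric oxide synthase gene. Nos2 had means of 3.04 in MPI-2 with LPS and 2.93 in MPI-2 mock, and of 5.77 in BMM with LPS and 3.00 in BMM mock.

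Il10ra ran most like Plk2 (r = 0.945), Slc16a10 (r = 0.944) and Gadd45a (r = 0.944). Plk2, a polo-like kinase gene, stood at 9.66 in MPI-2 with LPS and 6.4 in MPI-2 mock, and at 8.21 in BMM with LPS and 8.22 in BMM mock. Gadd45a, a stress response gene, stood at 9.44 in MPI-2 with LPS and 5.82 in MPI-2 mock, and at 7.02 and 7.01 in BMM with LPS and BMM mock. Il10rb ran most like Gatm (r = 0.987), Rhoj (r = 0.986) and Rnf150 (r = 0.981), of which Gatm encodes an enzyme of creatine synthesis. Gatm stood at 2.97 in MPI-2 with LPS and 2.75 in MPI-2 mock, and at 6.08 in BMM with LPS and 6.79 in BMM mock.

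Markers of other cell types that can make IL-10 were low. Of 4 B cell markers 0 lay above the background level in MPI-2 and 2 in BMM, Cd79b and Pax5, whereas Cd79a and Ms4a1 lay below it in all groups. The summed B cell values ran from 10.6 to 12.2 in MPI-2 with LPS and 10.5 to 11.1 in MPI-2 mock, and from 11.96 to 12.81 in BMM with LPS and 11.95 to 12.48 in BMM mock. Of 7 T and NK cell markers 1, Cd3e, lay above the background level in each group, joined by Cd4 in BMM mock, and Cd3g, Cd3d, Cd8a, Ncr1 and Lat lay below it in every group. Their sums ran from 19.4 to 20.4 in MPI-2 with LPS and 19.6 to 19.9 in MPI-2 mock, against 21.1 to 21.2 in BMM with LPS and 20.7 to 21.5 in BMM mock. Of 5 mast cell and basophil markers 0 lay above it in MPI-2 and 1, Tpsb2, in BMM. The part of such cells in the Il10 values was not tested.

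Of 6 alveolar-type macrophage markers, Marco, Pparg, Itgax, Car4 and Chil3 were higher in MPI-2 than in BMM both after LPS and in mock, and Siglecf was lower in both. Siglecf stood at 3.58 ± 0.12 in MPI-2 with LPS and 3.39 ± 0.073 in MPI-2 mock, close to the background level, and at 4.13 ± 0.37 in BMM with LPS and 3.94 ± 0.16 in BMM mock (SD, n = 3 each). The mean of each marker lay above the background level in MPI-2, and that of 5 of 6 in BMM, where Chil3 was below. The sums over all 6 ran from 45.7 to 46.3 in MPI-2 with LPS and 43.7 to 44.5 in MPI-2 mock, against 25.5 to 27.6 in BMM with LPS and 26.0 to 26.7 in BMM mock.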

How the data were processed

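Newly made RNA of 12 samples, 3 in each of 4 groups taken from the sample labels, was measured on Affymetrix arrays. The deposited values are log2 expression values per probe set, made by the authors with RMA and the package affy, per the submitters' processing notes. No version of either is given in the sources used here. RMA equalises the probe distributions of arrays run together, which takes out much of a global change in transcription. That all 12 arrays were run together is not stated, and their gene values still differed in spread between groups. Array medians were 3.60 to 3.79. Of 34760 probe sets, 21640 name 1 gene, 1321 several and 11799 are unnamed here. The probe set with the highest mean stood for each of 954 genes with several, which left 19937 genes, of which 19855 matched RefSeq (GRCm38.p6), used for names, gene order and promoters. A model with 4 group means was fitted with limma 3.58.1 in R 4.3.3 (8 residual and 6.99 prior degrees of freedom), with Benjamini-Hochberg adjustment and a threshold of 0.05. All genes entered the tests, with no filter. A group below the background level on all 3 arrays gave a fold as a bound against that level. The fit was tested on simulated data. The 6 genes, the lists and the rule for named genes were chosen with earlier results of these data known. Named were the 6 genes, the 3 genes most like each detected one, the called members of 4 pathway lists with the largest changes (up to 4 per comparison, and any that went against the majority), of which some are given here, and the nearest neighbours of the loci. Jak1, Tyk2, Stat3, Siglecf and Ifnl2 and the levels of Il20ra were added after their values were seen. A p-value here rests on the spread between the samples given, which may be technical where they share a culture. The fit takes 1 such spread per gene from all 12 arrays, so the calls in MPI-2 also depend on the spread of the BMM arrays, and the reverse. Alternatives were other scalings, a background filter, the mean of probe sets, only the groups compared, trend and robust moderation, a replicate block and leaving out arrays. One further alternative, chosen after seeing the data, left out a pair of BMM arrays at once (mock replicate 1 with LPS replicate 3).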

Additional observations from a re-analysis of the deposited data

Results flagged for a closer look

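The LPS response differed between MPI-2 and BMM, by the interaction term of the limma fit, for 3 of the 6 genes. That comparison called 13.4% of all genes. A further 11 genes are given here, picked for this comparison by the rule for pathway genes and neighbours. They are not all that were called. Rel, Stat3, Socs3, Sbno2 and Il1rn also passed the threshold, as did Tnfsf4, Nos2, Plk2 and Gadd45a among the genes most like the 6. As log2 differences, MPI-2 minus BMM, the values were -3.64 for Il10, -1.15 for Il19 and 0.71 for Il10ra. Among the other IL-10 family genes the value was 0.91 for Il20rb. Among the regulators of Il10 it was 2.11 for Bhlhe41, -1.26 for Nfil3, 1.17 for Fos, 0.94 for Sp3 and -0.82 for Irf4. Among the signalling and target genes it was -3.69 for Socs1, -2.06 for Arid5a and 1.91 for Hmox1. Among the neighbours it was 0.80 for Ifngr2 and 0.91 for Rassf5. The calls of Sp3, Irf4, Ifngr2 and Rassf5 were lost in some alternatives, with adjusted p-values up to 0.0735 for Sp3, 0.068 for Irf4, 0.0675 for Ifngr2 and 0.0768 for Rassf5.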

How the results depend on the processing

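Over 20 alternatives, 539 of 584 recomputed changes of the 6 genes kept their direction and their side of the threshold, and the calls of Il10, Il19 and Il10rb did so in each alternative, as did Il10ra for LPS in MPI-2 and for the difference of responses. The change of Il10 with LPS in BMM ran from 3.46 to 4.03, that of Il19 from 1.06 to 1.27, and that of Il10ra in MPI-2 from 0.74 to 0.81. The genes called after LPS between the cell types were 5 of 6, against 3 under cyclic loess, under quantile normalization and among genes above background, and 3 to 5 when arrays were left out (3 without BMM LPS replicate 1, without MPI-2 LPS replicate 1 or without MPI-2 LPS replicate 3). LPS in MPI-2 called 2941 genes, against 5026 with only the groups compared and 2106 to 4129 when arrays were left out. LPS in BMM called 5114, against 3464 to 5182 in alternatives that kept all arrays. Small uncalled changes switched sign: Il19 for LPS in MPI-2 to -0.0404 under cyclic loess and -0.0482 under quantile normalization (-0.0411 to 0.0949 with arrays left out), the Il24 difference of responses to 0.0261 and 0.0118 (-0.132 to 0.0892), Il20 after LPS to 0.115 and 0.0784 (-0.121 to 0.00267), Il10ra for LPS in BMM to -0.0714 under quantile normalization (-0.0144 to 0.181), Il19 in mock (-0.077 to 0.0884) and Il24 for LPS in BMM (-0.0031 to 0.218). Called changes that switched sign under cyclic loess were Il10ra after LPS (-0.0941) and Map3k8 after LPS (-0.0254). Of 101 other called changes 75 held throughout and 26 were lost somewhere. Under cyclic loess, MPI-2 against BMM after LPS called 1 as higher and 12 as lower among the 19 genes of the signalling list. The main fit called 3 as higher and 8 as lower, where 22.5% and 21.6% of all genes were so called. The cause of these shifts was not tested. Whether replicate numbers pair the samples could not be decided, because deviations from the mean of only 3 arrays depend on each other. Same-numbered arrays had correlations of deviations between -0.154 and 0.0503 for MPI-2, and between -0.0921 and 0.242 for BMM. Arrays of different numbers had -0.0831 to 0.168 for MPI-2 and -0.176 to 0.214 for BMM. Numbers are those of the sample titles, and the descriptions number the MPI-2 mock samples otherwise, so the pairing check, the block and the naming of left-out MPI-2 mock arrays rest on the titles. With the replicate block, Il10 changed with LPS by 0.13 in MPI-2 and 3.77 in BMM (limma adjusted p = 4.72e-08), LPS in MPI-2 called 2988 genes, and the Il10ra difference after LPS had an adjusted p of 0.0513. With 3 arrays a group, and dim genes near the background level, small changes of Il20 and Il24 with LPS may have been missed.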
